A study of Mus musculus with 12 samples.

Results

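The genes described here are 10 genes of fatty acid and triglyceride synthesis, Fasn, Acaca, Scd1, Scd2, Elovl6, Acsl1, Gpd1, Agpat2, Dgat1 and Dgat2. They were taken from a list of lipogenesis genes and not by their measured values, though the list was chosen with earlier results of these data known. They are 10 of 21631 protein-coding mouse genes in the reference table. Each locus is the gene span on GRCm38 (mm10) with 5 kb on each side. The measurement was the length of that locus covered by peaks of H3K27ac, a histone acetylation found at active promoters and enhancers.

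Fat cells make fatty acids from acetyl-CoA. Acetyl-CoA carboxylase (Acaca) forms malonyl-CoA, fatty acid synthase (Fasn) builds palmitate from it, and elongases and desaturases such as Elovl6, Scd1 and Scd2 lengthen the chain and introduce a double bond. The acids are activated to acyl-CoA (Acsl1) and placed on a glycerol backbone, whose phosphate form Gpd1 can supply, by a chain of acyltransferases that includes Agpat2 and ends with Dgat1 and Dgat2. In adipocytes this pathway is known to respond to insulin and to be under SREBP, ChREBP, LXR, C/EBP and PPAR-gamma factors.

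The study profiled 6 ChIP-seq libraries, 3 from Azin2-/- cells (replicates 1, 2 and 8) and 3 from wild-type cells (replicates 1, 2 and 2b). Azin2 encodes antizyme inhibitor 2, which frees ornithine decarboxylase, the first enzyme of polyamine synthesis, from antizyme. All libraries came from progenitor cells of mouse subcutaneous fat that had first grown for 1 week with 10% serum and 4.5 g/l glucose. Both genotypes then received 5 µg/ml insulin with 0.5 mM IBMX, 1 µM dexamethasone and 1 µM rosiglitazone for 2 days, and insulin without the other agents for 5 days. The kind of knockout allele and the age of the mice were not given in the sources used here. Nor do the labels state if the 3 libraries of a genotype represent different mice, and p-values therefore measure only the spread between these libraries. The 6 input libraries were not analysed here.

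The deposited lists held 741843 to 1216000 peaks per library, of which 13843 to 54847 had a q of 0.05 or less, with the highest number in Azin2-/- replicate 1. Read depth is unknown, so the 30000 peaks of smallest p in each library, called main peaks below, were compared. The weakest main peak had a -log10 q of 0.73 in wild-type replicate 1, 0.93 in Azin2-/- replicate 8 and 1.52 in Azin2-/- replicate 1. In the other libraries it was 1.15 to 1.27. Only in Azin2-/- replicate 1 did all main peaks have a q of 0.05 or less. Main peaks covered 16.9 Mb in wild-type replicate 1 and 21.1 to 28.9 Mb in the others. The shared part of the covered length of any pair of libraries was 0.121 to 0.243 of their union. At least 1 of the main peaks lay at 2 of 10 adipocyte marker loci (Cebpa and Plin1) and at 1 of 8 progenitor marker loci (Pdgfra) in every library, whereas the adipocyte gene Adipoq had none in any. Fabp4 and Cidec had main peaks in 1 library each, and Lpl and Pck1 in 2 each. The summed cover of the adipocyte markers was 6701 to 8147 bp in Azin2-/- and 4733 to 8689 bp in wild-type libraries, and that of the progenitor markers 2966 to 8801 and 5058 to 7032 bp. In the test described below, 4 of 5 adipocyte markers were higher and 1 lower in Azin2-/-, none past the adjusted threshold. Of these 5 only Lipe did not overlap, with 2084, 1944 and 1169 bp in Azin2-/- replicates 1, 2 and 8. In wild-type replicates 1, 2 and 2b it had 0, 262 and 0 bp. Over all genes tested 45.4% were lower, and 6.72% were higher without overlap. Markers of other cells were covered in both genotypes, though none of these loci in every library. Their sums were 3279 to 5524 against 801 to 6095 bp for 6 macrophage genes, 5457 to 7247 against 802 to 5516 bp for 5 endothelial genes, and 1827 to 2212 against 0 to 1032 bp for 4 muscle genes, of which Myog had none. The sums of the muscle list did not overlap between genotypes. Scaled to equal total cover, as the values compared by genotype below, both the muscle sums (1469 to 2269 in Azin2-/- against 0 to 857 bp in wild-type libraries) and the endothelial sums (5599 to 7517 against 1106 to 4582 bp) were higher in Azin2-/- without overlap, while the other 3 lists overlapped. The part of these markers in the results below was not tested. In such bulk samples, fewer cells of a type and less of the mark per cell cannot be told apart.

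Of the 10 genes, 7 had a main peak in every library (Fasn, Acaca, Elovl6, Acsl1, Gpd1, Agpat2 and Dgat2), against 31.6% of all protein-coding genes. Dgat1 had one in 5 libraries, Scd1 in 3 and Scd2 in 1. At Gpd1 the main peaks of the Azin2-/- libraries lay only in the 5 kb flank, near the gene Cox14, as described below. Merged by 1 bp or more, the main peaks made 48 regions at these loci, of which 7 were held by all 6 libraries and 34 by a single library. The plot of locus cover by library shows the 6 values of each gene.

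**Figure D1:**
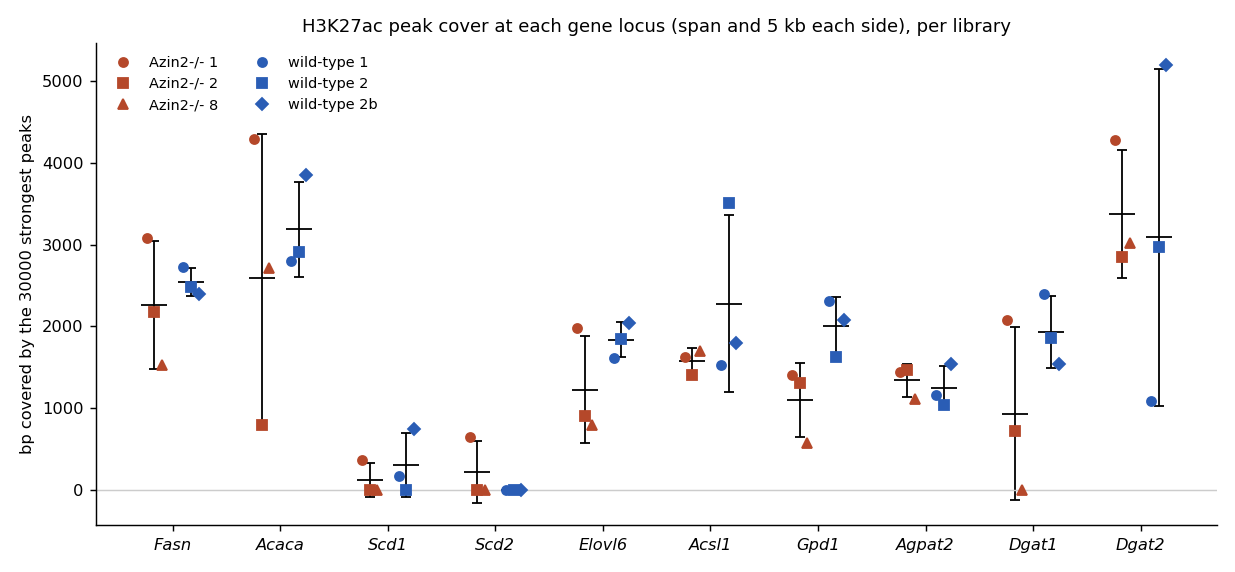
Covered bp of main peaks at each locus (y axis), for 3 Azin2-/- (red) and 3 wild-type (blue) libraries, with the mean and SD of each genotype (n = 3) as black bars. Dgat2, Acaca and Acsl1 hold the highest single values (5200, 4291 and 3514 bp), Scd1 and Scd2 stay at 745 bp or less, and the genotypes overlap at every gene except Gpd1, where the highest Azin2-/- value is 1405 bp and the lowest wild-type value 1623 bp.

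Of the 7 regions held by all libraries, 5 sat on a gene end and 2 inside a gene. For 5 of the genes the RefSeq promoter table (GRCm38.p6) gives 6 transcription starts, which places those peaks against a promoter. The window from 250 bases before to 50 after the start was covered by main peaks in all 6 libraries at the start of Fasn, at the upstream start of Acsl1 and at that of Agpat2, but in 0 libraries at the start of Elovl6, at the downstream start of Acsl1 and at the single start the table gives for Acaca. That Acaca start, at 84195438, lies far inside the gene span, so it does not stand for the lower-coordinate end of Acaca, which is described below. Of 32619 promoter windows in the table, 10.0% were covered in every library and 60.6% in none. The sequences below show how these promoters differ in base composition and in the letters of known elements. Each is the 250 bases before the start, read in the direction of transcription, with matches to the searched motifs in capitals.
Fasn, chr11:120824548-120824797, minus strand: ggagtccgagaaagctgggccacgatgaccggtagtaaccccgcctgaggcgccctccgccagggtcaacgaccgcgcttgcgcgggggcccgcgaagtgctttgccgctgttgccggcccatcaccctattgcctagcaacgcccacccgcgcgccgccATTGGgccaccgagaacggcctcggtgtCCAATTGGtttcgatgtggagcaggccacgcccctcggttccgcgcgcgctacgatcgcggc
Acsl1, upstream start, chr8:46470787-46471036, plus strand: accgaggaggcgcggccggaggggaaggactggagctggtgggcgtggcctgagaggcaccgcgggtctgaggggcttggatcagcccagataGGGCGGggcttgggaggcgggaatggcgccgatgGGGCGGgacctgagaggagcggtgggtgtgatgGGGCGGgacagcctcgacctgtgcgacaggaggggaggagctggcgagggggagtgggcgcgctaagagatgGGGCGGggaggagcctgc
Agpat2, chr2:26604418-26604667, minus strand: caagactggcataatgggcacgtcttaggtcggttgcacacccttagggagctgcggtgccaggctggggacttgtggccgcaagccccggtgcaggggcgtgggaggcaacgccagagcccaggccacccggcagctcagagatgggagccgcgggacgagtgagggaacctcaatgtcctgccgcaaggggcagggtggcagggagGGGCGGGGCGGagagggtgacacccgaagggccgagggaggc
Elovl6, chr3:129532136-129532385, plus strand: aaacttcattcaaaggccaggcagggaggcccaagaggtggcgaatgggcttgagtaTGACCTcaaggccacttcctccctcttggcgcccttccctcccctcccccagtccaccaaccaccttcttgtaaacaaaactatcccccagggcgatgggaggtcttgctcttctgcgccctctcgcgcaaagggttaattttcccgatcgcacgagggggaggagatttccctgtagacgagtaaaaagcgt
Acsl1, downstream start, chr8:46490716-46490965, plus strand: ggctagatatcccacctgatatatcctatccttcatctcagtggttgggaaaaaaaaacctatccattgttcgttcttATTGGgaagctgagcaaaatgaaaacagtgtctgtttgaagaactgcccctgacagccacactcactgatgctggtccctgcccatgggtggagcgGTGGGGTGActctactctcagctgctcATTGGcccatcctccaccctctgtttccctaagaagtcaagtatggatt
The motifs, searched on both strands, were the E-box CACGTG, the sterol element TCACNCCAC, the CCAAT box CCAAT, the Sp1 box GGGCGG, the C/EBP letters TTNNGNAAT and the nuclear receptor letters AGGTCA, and they occur in 7.15, 1.24, 37.4, 35.7, 11.5 and 16.3% of 32851 promoters of the same length. The covered Fasn window had 69.3% G and C and 3 CCAAT matches, at -90, -62 and -59, the last pair overlapping in opposite directions. The covered Acsl1 window had 74% G and C and 7 Sp1 box matches, of which those at 5, 10 and 41 lie past the start and are not printed, and that of Agpat2 72% and 3 Sp1 box matches, at -42, -37 and 24, of which the last lies past the start and is not printed. Among the uncovered windows, that of Elovl6 had 55.7% G and C and 1 AGGTCA match, and that at the inner start of Acaca 39.7% and no match. The downstream Acsl1 window had 50% G and C with 2 CCAAT matches and the single sterol element match, at -76, among these promoters. A match describes letters only and not a bound site.

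Acaca spans chr11:84129635-84401651. Its main-peak cover was 4291, 788 and 2711 bp in Azin2-/- replicates 1, 2 and 8, and 2794, 2906 and 3855 bp in wild-type replicates 1, 2 and 2b. In wild-type replicate 1, peaks of 475 and 173 bp, at ranks 28974 and 28975, had the weakest -log10 q of its main peaks, 0.73. Ties were ordered by chromosome name, so such peaks may be counted by that order alone. Peaks at the weakest q of their list also gave 1091 bp in Azin2-/- replicate 1 and 964 bp in wild-type replicate 2. Before scaling Azin2-/- replicate 2 stood low and replicate 1 high, so the wild-type values fell between them. The means were 2597 ± 1754 and 3185 ± 583 bp (SD, n = 3). These lengths filled on average 1.03% of the locus, at percentile 43.0 of all genes. One region was held by all 6 libraries, chr11:84179062-84180677, inside the gene and 49.4 kb from its lower-coordinate end, with 788 to 1304 bp in Azin2-/- and 791 to 1510 bp in wild-type libraries. The lower end itself carried main peaks in Azin2-/- replicates 1 and 8 and wild-type replicate 2. That region also overlaps Tada2a, which encodes a subunit of histone acetyltransferase complexes and whose start lies 67 bp from the end of Acaca. Of the 13 regions at Acaca, 9 were held by a single library.

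Fasn, at chr11:120805958-120825166, was among the more fully covered loci, with 8.21% of its locus in main peaks (percentile 93.1). Its cover was 3086, 2172 and 1524 bp in Azin2-/- replicates 1, 2 and 8, and 2728, 2482 and 2399 bp in wild-type replicates 1, 2 and 2b. The value of wild-type replicate 1 likewise includes peaks at its weakest -log10 q, 0.73, of 226 and 297 bp at ranks 29477 and 29478. That of Azin2-/- replicate 2 includes a peak of 288 bp at its weakest -log10 q, 1.15, at rank 22859. The wild-type values lay close together and inside the Azin2-/- range, and the means were 2261 ± 785 and 2536 ± 171 bp. The region that all libraries held, chr11:120822787-120825709, contains the start at 120824547. The 6 strongest summits lay within 76 bp of each other, 621 to 697 bp inside the gene from that start, and ranked between 114 and 5577 in their own lists. In the authors' values these summits stood 2.52 to 18.9-fold over local background, the lowest in Azin2-/- replicate 8, and folds are not compared between libraries.

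Elovl6 (chr3:129532386-129638495) encodes the elongase that extends palmitate-length acids. Its cover was 1976, 906 and 799 bp in Azin2-/- replicates 1, 2 and 8, and 1619, 1844 and 2044 bp in wild-type replicates 1, 2 and 2b. Azin2-/- replicates 2 and 8 lay under all wild-type libraries, while replicate 1 lay among them before scaling. Its single shared region, chr3:129532688-129534622, begins 302 bp after the start, and the strongest summits lay 1366 to 1670 bp downstream of it, so the promoter printed above was left uncovered. In this region the 3 Azin2-/- libraries had 1097, 906 and 799 bp and the wild-type libraries 1186, 1844 and 1331 bp, which did not overlap.

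The delta-9 desaturases Scd1 (chr19:44394450-44407709) and Scd2 (chr19:44293676-44306864), which make oleate-type acids, were almost without main peaks. Scd1 had 368, 0 and 0 bp in Azin2-/- replicates 1, 2 and 8, and 170, 0 and 745 bp in wild-type replicates 1, 2 and 2b. Scd2 had 653 bp in Azin2-/- replicate 1 and 0 in the other libraries. Neither reached the mean of 500 bp needed for a test. Peaks of any strength were present at both loci in every library, and all deposited peaks together covered 3163 ± 950 bp of the Scd1 locus in Azin2-/- and 4213 ± 839 bp in wild-type libraries, and 4554 ± 1805 and 3811 ± 815 bp of the Scd2 locus. Scd1 and Scd2 are paralogs in a tandem cluster, and values at these loci are uncertain, since the treatment of reads that match several places was not given in the sources used here.

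**Figure D2:**
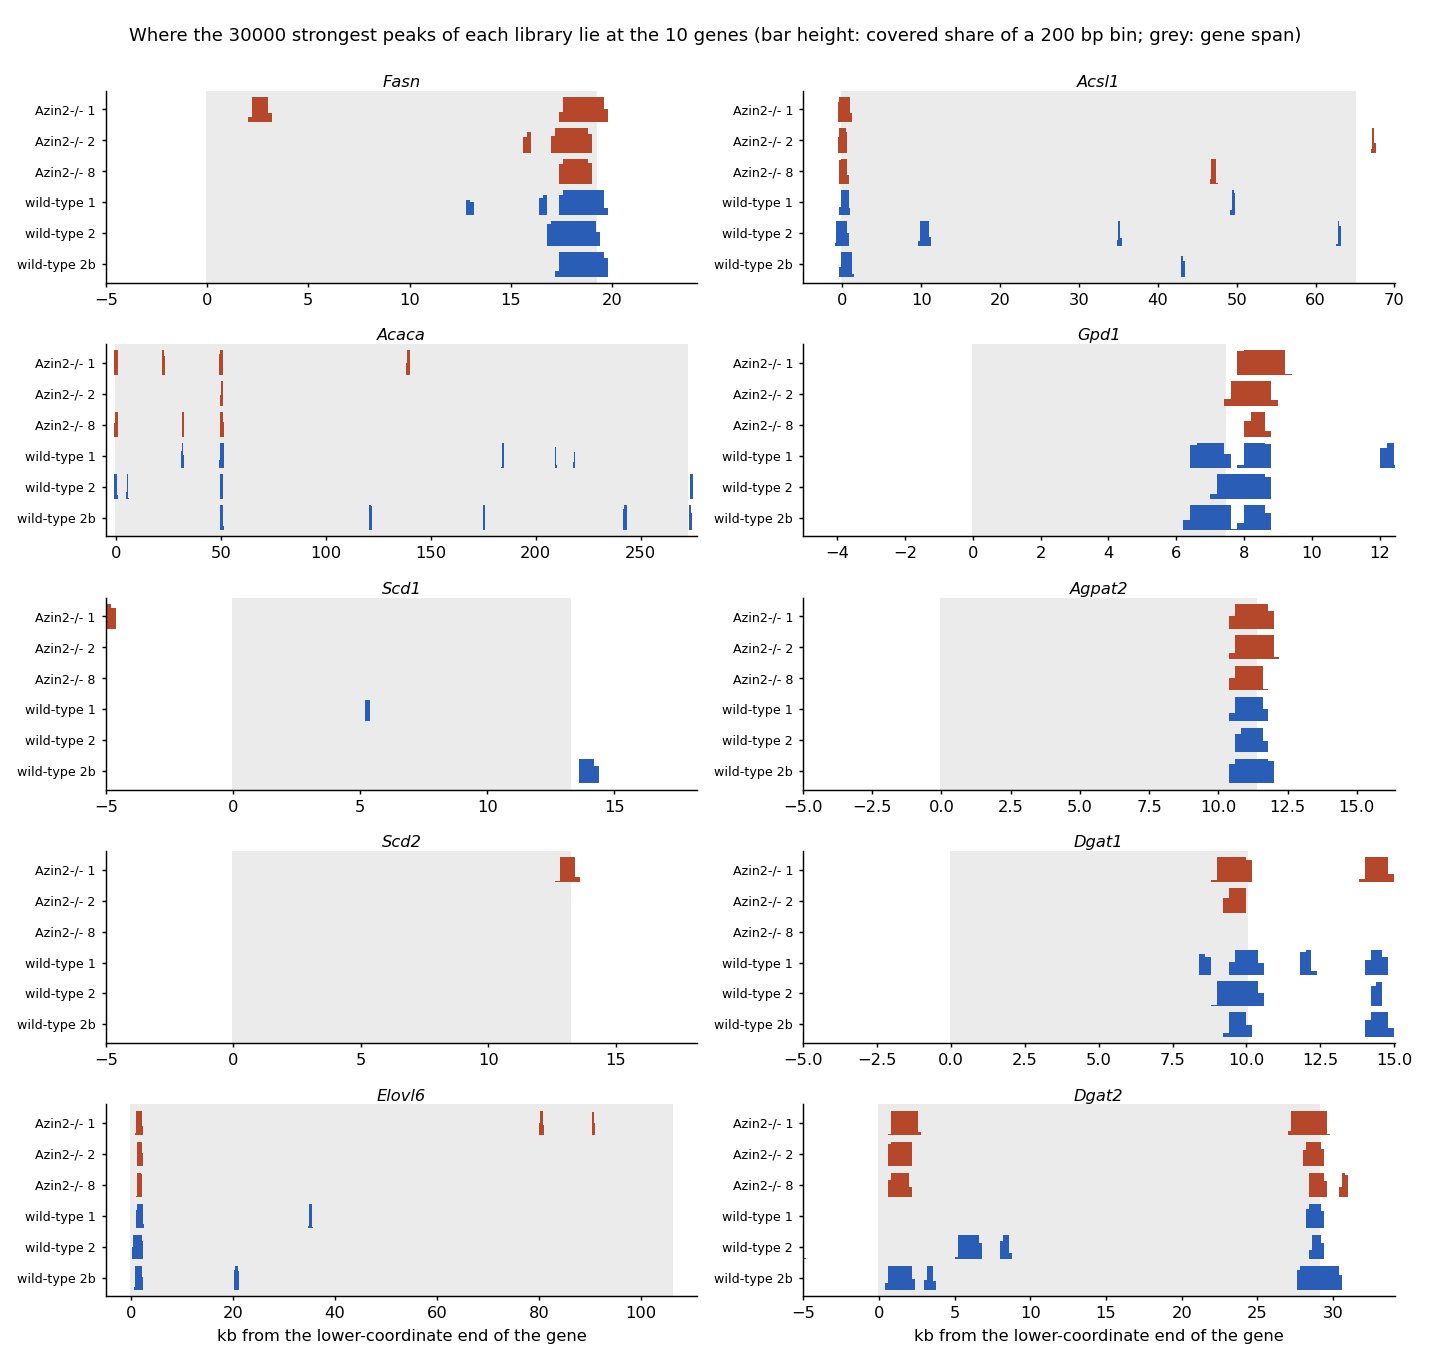
Position of main peaks along each locus (x axis, kb from the lower-coordinate end of the gene, grey gene span), 1 row per library (red Azin2-/-, blue wild-type), with bar height the covered share of a 200 bp bin. Bars at long genes are drawn wider than the bin so that they can be seen. The shared peaks of Fasn, Agpat2 and Dgat2 stand at the higher end and that of Acsl1 at the lower end. Main peaks reach into the Gpd1 span in wild-type libraries alone, in replicate 2 only by the edge of a peak with its summit past the gene end.

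Acsl1 (chr8:46471037-46536051) encodes a long-chain acyl-CoA synthetase of fat tissue. Its cover was 1624, 1401 and 1700 bp in Azin2-/- replicates 1, 2 and 8, and 1528, 3514 and 1792 bp in wild-type replicates 1, 2 and 2b. Only wild-type replicate 2 stood apart, and the means were 1575 ± 155 and 2278 ± 1079 bp. The shared region, chr8:46470214-46472255, lies over the upstream start, with summits 224 to 359 bp from it. It covered 1056 to 1624 bp in Azin2-/- and 1117 to 1522 bp in wild-type libraries. The 7 other regions at this locus were each held by a single library.

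Gpd1 (chr15:99717587-99725014) encodes the cytosolic glycerol-3-phosphate dehydrogenase, which turns a glycolytic intermediate into the glycerol backbone of triglycerides. Its locus had 1405, 1307 and 577 bp in Azin2-/- replicates 1, 2 and 8, and 2309, 1623 and 2083 bp in wild-type replicates 1, 2 and 2b. Every Azin2-/- library was under every wild-type library, with means of 1096 ± 452 and 2005 ± 350 bp. The cover did not centre on Gpd1, however. Its shared region, chr15:99723907-99726798, overlaps Cox14, a gene of cytochrome c oxidase assembly whose start lies 604 bp past the end of Gpd1, and the summits lay 270 to 406 bp from the Cox14 start. Of the cover of the Gpd1 locus 51.5% was inside Cox14, so a value for Gpd1 also measures that neighbour, whose promoter is shown for that reason.
Cox14, chr15:99725368-99725617, plus strand: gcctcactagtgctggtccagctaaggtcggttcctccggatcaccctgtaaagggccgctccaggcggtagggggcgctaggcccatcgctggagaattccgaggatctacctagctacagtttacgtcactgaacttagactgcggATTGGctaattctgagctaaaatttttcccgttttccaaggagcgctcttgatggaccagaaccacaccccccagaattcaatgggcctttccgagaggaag
It held 1 CCAAT match, at -102. Within the Gpd1 span itself, main peaks covered 0 bp in all 3 Azin2-/- libraries and 1012, 270 and 1108 bp in wild-type replicates 1, 2 and 2b. The 270 bp of wild-type replicate 2 were the edge of its Cox14-side peak, whose summit lay 874 bp past the end of Gpd1. Only wild-type replicates 1 and 2b had a separate peak reaching into the span, at ranks 18731 and 8965 of their lists. The peak of Azin2-/- replicate 2 began at 99725126, just past the end of the span at 99725014. This split by gene span was looked at after the values were seen. With the 60000 peaks of smallest p the span still had 0 bp in each Azin2-/- library, and with all deposited peaks it had 1675, 3512 and 1613 bp in Azin2-/- and 1733, 2952 and 3596 bp in wild-type libraries, so weaker peaks were present in both genotypes. Of 15976 genes with a main peak inside the span in some library, 0.238% had it in all 3 wild-type and no Azin2-/- libraries, and 1.05% the reverse.

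The acyltransferase Agpat2 (chr2:26593057-26604417), which makes phosphatidic acid and whose loss in humans causes generalised lipodystrophy, had the narrowest range of cover among the 8 genes that could be tested. Its cover was 1438, 1470 and 1112 bp in Azin2-/- replicates 1, 2 and 8, and 1164, 1043 and 1543 bp in wild-type replicates 1, 2 and 2b. The genotypes were interleaved, at 1340 ± 198 and 1250 ± 261 bp. All of it lay in 1 region over the start, chr2:26603499-26605073.

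Dgat1 and Dgat2 are unrelated enzymes that carry out the last step, the acylation of diacylglycerol. Dgat1 (chr15:76502012-76512021) had 2081, 718 and 0 bp in Azin2-/- replicates 1, 2 and 8, and 2397, 1859 and 1536 bp in wild-type replicates 1, 2 and 2b. Azin2-/- replicates 2 and 8 were under all wild-type libraries and replicate 1 was among them. The region at the higher end, chr15:76510995-76512511, was held by every library other than Azin2-/- replicate 8. There that library had a peak of 487 bp at rank 31370, just outside its main peaks. Of the cover at Dgat1, 26.2% lay inside the neighbouring gene Scrt1. Dgat2 (chr7:99153663-99182713) had 4275, 2844 and 3016 bp in Azin2-/- replicates 1, 2 and 8, and 1091, 2973 and 5200 bp in wild-type replicates 1, 2 and 2b. The wild-type libraries spanned the whole Azin2-/- range. Its shared region, chr7:99180827-99184643, had summits 76 to 270 bp from the higher end. A further region near the lower end, chr7:99154205-99156286, held 1832, 1578 and 1427 bp in the Azin2-/- libraries and 1752 bp in wild-type replicate 2b, with none in wild-type replicates 1 and 2.

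To ask whether these loci differ between genotypes, each library's cover was brought to the same total, log2(cover + 500 bp) was taken, and limma was run on the 11670 genes whose mean reached 500 bp. Of the 10 genes 8 could be tested, and none passed the Benjamini-Hochberg threshold of 0.05 in either direction, as none of all genes did (0% called higher and 0% called lower). At an unadjusted p under 0.05 there were 506 higher (4.34%) and 249 lower genes (2.13%), and none of the 8 was among them. The log2 difference, Azin2-/- minus wild-type, was below 0 in 7 of the 8 genes, with a median of -0.51, against 45.4% of all genes tested and a median of 0.069.

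Dgat1 had the lowest value, -1.21 (SE 0.56, 95% interval -2.44 to 0.021, limma adjusted p = 0.771), and without Azin2-/- replicate 8 it was -0.64. Gpd1 followed at -0.81 (SE 0.39, interval -1.66 to 0.048, limma adjusted p = 0.773) and was at -0.44 with the 15000 peaks of smallest p. Elovl6 stood at -0.61 (SE 0.36, interval -1.41 to 0.18, limma adjusted p = 0.792) and was at -1.09 with 60000 peaks, but turned to 0.24 with peaks at a q of 0.01 or less. The intervals of all 8 genes included 0, so a difference was not detectable with these libraries. Acaca was at -0.56 (limma adjusted p = 0.814) and moved to -0.059 without Azin2-/- replicate 2. The value of Acsl1, -0.47 (limma adjusted p = 0.826), moved to -0.17 without wild-type replicate 2, and that of Fasn, -0.30 (limma adjusted p = 0.877), to -0.10 without wild-type replicate 1. Agpat2, at -0.024 (limma adjusted p = 0.992), and Dgat2, at 0.18 (limma adjusted p = 0.936), were nearest to 0. Dgat2 was at -0.18 without wild-type replicate 1.

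**Figure D3:**
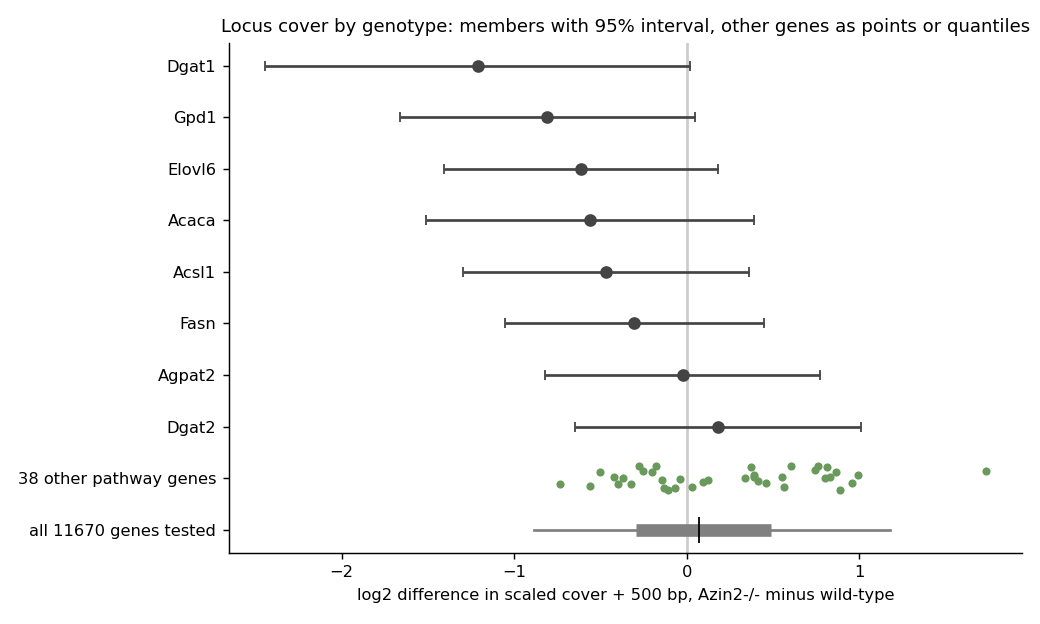
Log2 difference in scaled cover plus 500 bp, Azin2-/- minus wild-type (x axis), for the 8 genes tested with limma's 95% interval, for 38 other pathway genes as points, and for all 11670 genes as the 25th to 75th (thick) and 5th to 95th percentiles (thin) with the median marked. The values run from -1.21 at Dgat1 to 0.18 at Dgat2 and every interval of the 8 genes crosses 0.

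After scaling, the genotypes did not overlap at 2 genes, Elovl6 and Gpd1, both lower in Azin2-/-, and no gene was higher without overlap. Over all genes tested 4.93% were lower and 6.72% higher without overlap. Wild-type replicate 1 had the smallest total cover, so scaling raised its values most. At Fasn and Acaca those values include the peaks at its weakest q described above. Summed over the 10 genes, cover was 21197, 11606 and 11439 bp in Azin2-/- replicates 1, 2 and 8, and 15800, 18244 and 21197 bp in wild-type replicates 1, 2 and 2b. The highest sum was the same in both genotypes. Scaled, the sums were 17040, 11907 and 12586 bp against 21788, 19338 and 17608 bp, with means of 13844 ± 2788 and 19578 ± 2101 bp, and they did not overlap. The log2 ratio of these means was -0.50, which is given with no test because the genes were chosen with results known.

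The 7 regions held by all libraries leave out regions seen in a single library, but merging can join to them peaks that only some libraries had. Scaled cover was lower in all 3 Azin2-/- than in all 3 wild-type libraries at 3 of them. At Fasn it was 1787 ± 132 against 2555 ± 528 bp, at Elovl6 897 ± 28.4 against 1565 ± 429 bp, and at Gpd1, where the region is shared with Cox14, 1035 ± 362 against 2032 ± 532 bp (SD, n = 3). At these 3 regions the genotypes did not overlap before scaling either. The Gpd1 region, however, joined second peaks of wild-type replicates 1 and 2b. Its strongest peak alone was 1405, 1307 and 577 bp long in Azin2-/- replicates 1, 2 and 8. In wild-type replicates 1, 2 and 2b it was 821, 1623 and 793 bp, so the genotypes overlapped there. The Dgat2 region likewise joined a second peak of Azin2-/- replicate 8. None of the 7 regions was higher without overlap. Of all 4149 regions held by 6 libraries, 9.83% were lower and 2.8% higher without overlap, so a lower side was the more frequent one across the genome too. The log2 ratio of means at the other 4 ran from -0.29 at Acaca to 0.073 at Dgat2. With 3 libraries against 3 the smallest exact permutation p is 0.1, so no single region could pass 0.05 by that test.

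**Figure D4:**
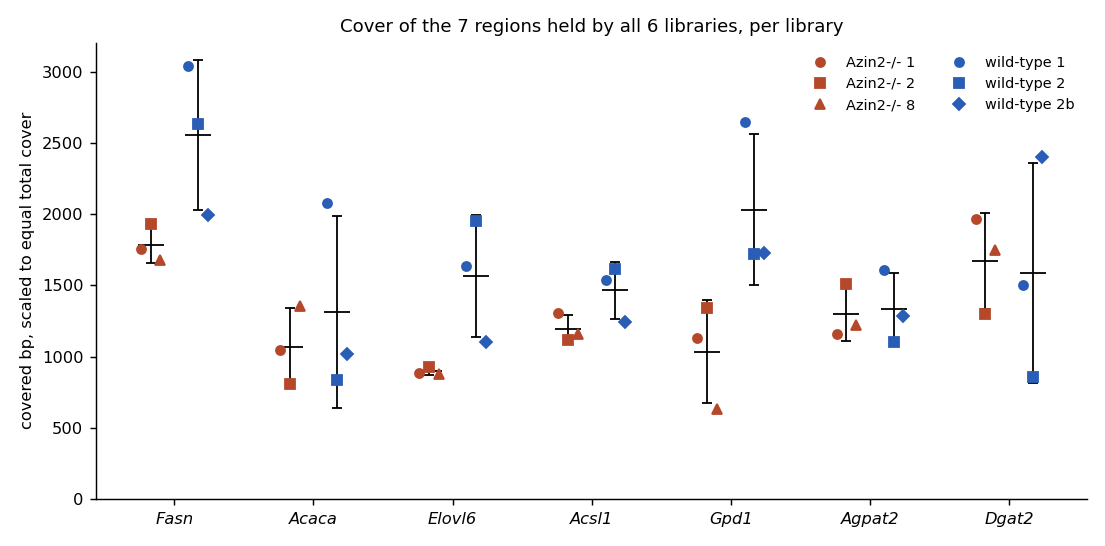
Scaled covered bp (y axis) of the 7 regions held by all 6 libraries, named by gene, with the mean and SD per genotype (n = 3) as black bars. The red Azin2-/- points lie under all blue wild-type points at Fasn, Elovl6 and Gpd1, and the genotypes overlap at the other 4 genes.

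A list of 53 other genes of the pathway, its regulators included, was measured in the same way. Of these, 18 (34.0%) had a main peak in every library, against 31.6% of all protein-coding genes. Another 3 had none in any, the citrate carrier Slc25a1, Thrsp and Scd4. Of 38 tested, 22 were higher and 16 (42.1%) lower in Azin2-/- with a median of 0.23, none passed the adjusted threshold, and 2 were higher and 0 lower without overlap. Over all genes tested 45.4% were lower and the median was 0.069, while 6.72% were higher and 4.93% lower without overlap. The 4 of smallest p in the higher direction were Fads2 (1.74), a desaturase of polyunsaturated acids, Mlxipl (0.99), which encodes ChREBP, Nr1h3 (0.83), which encodes LXR-alpha, and the lipid droplet gene Fitm2 (0.76). Fads2 had 1388, 1019 and 1230 bp in Azin2-/- replicates 1, 2 and 8 and 0 bp in each wild-type library (limma adjusted p = 0.743), so its log2 value depends on the 500 bp added and is no bound. Mlxipl had 2395, 1091 and 2499 bp against 688, 893 and 334 bp (limma adjusted p = 0.771). These were the 2 genes whose genotypes did not overlap. In the lower direction the 4 of smallest p were Acbd3 (-0.56), Agpat5 (-0.37), Agpat3 (-0.74) and Gpam (-0.40), the last encoding a mitochondrial acyltransferase that opens glycerolipid synthesis. Their limma adjusted p lay between 0.826 and 0.877.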

How the data were processed

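Per the submitters' processing notes, the 6 deposited peak lists use build mm10 (GRCm38). Aligner, peak caller, duplicate handling and control library were not given in the sources used here. The deposited columns hold, for each peak, the authors' score, their fold (ratio over local background), and p-values and q-values as -log10. These values were ranked, filtered and described inside 1 list at a time. Read depth is not stated, so no interval based on reads is given.

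Peaks outside chromosomes 1 to 19 and X were dropped, duplicated coordinates were reduced to 1, and the 30000 of smallest p were kept per library. Ties were ordered by fold, then by chromosome name sorted as text, then by position. Covered bp within each gene span and 5 kb on each side were scaled to equal total cover, 500 bp were added, and log2 values of genes whose mean reached 500 bp were tested with limma 3.58.1 in R 4.3.3 (eBayes with a mean trend, no block, Benjamini-Hochberg at 0.05). Values printed as bp are unscaled unless called scaled. The fit was tested on simulated data. Regions were merged by 1 bp or more. The genes and lists were chosen with earlier results of these data known. Every one of the 10 genes is named, and of the other pathway genes the 4 of smallest p in each direction. Alternatives were lists of 15000 and 60000 peaks, a q of 0.01 or less, 200 bp added, no minimum, 1 kb flanks, no scaling, each library left out, wild-type replicates 2 and 2b as 1 averaged sample, and a replicate block. Promoters are from RefSeq (GRCm38.p6), where 5 of the 10 genes matched by symbol.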

Additional observations from a re-analysis of the deposited data

How the results depend on the processing

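No gene of the 10 passed the adjusted threshold under any alternative. Over all genes, counts called were 0 higher and 0 lower in each alternative, leaving out each library included, except with peaks at a q of 0.01 or less, where 22 genes were higher and 4 lower. There the lists differ in length between libraries, and the cause was not tested. Of 72 values of single genes under the other alternatives 68 kept their direction, as did 44 of 48 with a library left out. The reversed values were -0.00021 for Dgat2 with 60000 peaks, 0.24 for Elovl6 and 0.58 for Agpat2 at a q of 0.01 or less, and 0.077 for Agpat2 without scaling, and the cause was not tested. Apart from the runs that left a library out, the alternatives ran from -0.80 to -0.17 for Acaca, -0.87 to -0.36 for Acsl1, -0.61 to -0.17 for Fasn, -1.67 to -0.86 for Dgat1, -0.98 to -0.44 for Gpd1 and -1.09 to 0.24 for Elovl6. With 1 library left out, Agpat2 ranged from -0.11 to 0.083 and Dgat2 from -0.18 to 0.45. The number of genes with a main peak in every library was 5 of 10 at a q of 0.01 or less and 7 or 8 otherwise. Without scaling the median of all genes moved from 0.069 to 0.162. The log2 ratio of the summed cover stayed below 0 in each alternative run, from -0.68 to -0.32. The libraries share only a replicate number: their deviations correlated at -0.040 for number 1 and 0.116 for number 2. In a fit with that number as replicate block, numbers 8 and 2b each hold a single library and add nothing to the genotype difference. That fit therefore compares only replicates 1 and 2 of each genotype. It called 0 genes higher and 0 lower (710 and 198 at an unadjusted p under 0.05), and gave -0.90 for Dgat1, -0.72 for Gpd1 and -0.58 for Elovl6.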

Other observations

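Of the 34 regions held by a single library, wild-type replicate 1 held 11, wild-type replicates 2 and 2b held 7 each, and Azin2-/- replicates 1, 2 and 8 held 6, 2 and 1. Across the genome 110232 of 128486 merged regions were held by a single library, of which wild-type replicates 1, 2 and 2b held 19.4, 17.6 and 16.9%, and Azin2-/- replicates 1, 2 and 8 held 13.2, 15.7 and 17.2%. Whether the counts at the 10 genes depart from these shares was not tested. Wild-type replicates 2 and 2b, whose labels share a number, overlapped with a Jaccard index of 0.160 and had 0 peaks of equal coordinates, and they were counted as separate libraries.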
